A study of Drosophila melanogaster with 4 samples.

Results

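Ferritin is the protein cage that stores iron. In Drosophila melanogaster the main form is a secreted cage built from both Fer1HCH, the heavy chain that oxidises iron as it enters, and Fer2LCH, the light chain that serves the iron core. Both chains pass through the secretory pathway, and the cage carries iron between tissues as well as storing it. Fer3HCH is a separate heavy chain found in mitochondria. Here the CG1233-GFP binding calls at these 3 ferritin genes, of 13945 protein-coding genes in the annotation, are described. The genes are the ferritin chain genes by name, but this family was chosen with earlier results of these data known.

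The calls came from chromatin immunoprecipitation followed by sequencing (ChIP-seq), which recovers the DNA that a protein of interest sits on. The 4 biological replicates were whole embryos of mixed sex, 0 to 24 h old, from the single fly strain CG1233-GFP, in which an insertion targets CG1233 and tags the protein with GFP. All 4 carry the insertion, so the series has 1 group and no comparison between groups. The labels disagree on the libraries: the descriptions speak of input controls, but CG1233 is entered as the antibody and the libraries as transcription factor ChIP-seq. The lists were read as ChIP calls. Because embryos of all ages and tissues were taken whole, a weak call in all cells and a strong call in few cells cannot be told apart. Each replicate has a list of 30000 calls, as has the pool of the 4, and these lists run from strong binding calls down to background. The optimal list of 5211 peaks passed the authors' irreproducible discovery rate step, which keeps calls that recur between replicates, and was made up of the 5211 strongest pooled calls. Calls were ranked within each list by the peak caller's signal, with 1 as the strongest, because the scale of that signal differs between lists. No list gives read counts, so the sequencing depth behind each rank is unknown.

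Fer1HCH and Fer2LCH shared 1 strong peak, and Fer3HCH had only a weak call that fell just short of the optimal list. The shared peak ranked 139 of 5211 in the optimal list, inside the strongest 2.67%, and 91st of the 2424 optimal peaks with a summit within 500 bp of an annotated transcription start site (TSS). All 4 replicates placed a strong call there. Upstream of Fer3HCH the strongest pooled call ranked 5319, which was 108 places below the last optimal peak. Of the 3 ferritin genes, 2 therefore had an optimal summit within 500 bp of a TSS, through a single peak, against 19.9% of all protein-coding genes.

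The sequences under these calls are shown because they locate the binding calls relative to the genes. The first is the part of the shared peak that is intronic to Fer2LCH, at dm6 chr3R:30388422-30388579, plus strand, up to the base before the next exon. Capitals mark the stretch spanned by the summits of the 4 replicates, 61 bases long. The second is the 100 bp to either side of the pooled summit upstream of Fer3HCH, at dm6 chrX:13108503-13108703, plus strand. There the capitals mark 94 bases spanned by the replicate summits. Fer3HCH is transcribed from the minus strand, so its start lies to the left of this stretch.
Fer1HCH and Fer2LCH shared peak: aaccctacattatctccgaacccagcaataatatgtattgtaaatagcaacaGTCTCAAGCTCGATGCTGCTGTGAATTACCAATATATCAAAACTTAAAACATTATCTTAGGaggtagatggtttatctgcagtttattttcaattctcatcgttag
Fer3HCH upstream call: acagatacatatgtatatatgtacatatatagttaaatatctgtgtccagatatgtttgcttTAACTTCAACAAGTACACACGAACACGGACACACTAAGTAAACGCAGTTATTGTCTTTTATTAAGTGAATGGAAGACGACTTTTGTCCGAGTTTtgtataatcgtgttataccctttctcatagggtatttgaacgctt

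The chain genes Fer1HCH (FBgn0015222, chr3R:30385573-30388178, minus strand) and Fer2LCH (FBgn0015221, chr3R:30387804-30390584, plus strand) lie head to head. The transcripts that start farthest out overlap by 375 bp, while the TSSs that the annotation marks as canonical stand 1211 bp apart. Each gene has 4 annotated TSSs, over 9 transcripts for Fer1HCH and 5 for Fer2LCH. The nearest other genes begin or end 13190 bp away on the Fer1HCH side (heca) and 13844 bp away on the Fer2LCH side (the non-coding RNA lncRNA:CR45570). No other gene has a TSS within 5 kb of either.

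The shared peak spans chr3R:30388422-30388708 and has its summit at 30388509. That base lies in the first intron of both Fer2LCH-RA (658 bp) and Fer2LCH-RB (202 bp), and in no exon of either gene. It is 331 bp upstream of the outermost Fer1HCH TSS, that of Fer1HCH-RA. The other Fer1HCH TSSs are farther, at 649, 890 and 909 bp, and the site at 890 bp is the canonical one. For Fer2LCH, the summit is 233 bp downstream of the TSS of Fer2LCH-RB and 321 bp upstream of the canonical TSS, used by Fer2LCH-RD and Fer2LCH-RE. The TSSs of Fer2LCH-RA and Fer2LCH-RC are 705 and 630 bp away. Thus 1 of 4 Fer1HCH TSSs and 2 of 4 Fer2LCH TSSs lie within 500 bp of the summit, and the assignment to Fer1HCH rests on the single transcript Fer1HCH-RA.

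Genes laid out like this pair had an optimal promoter summit more often than the average gene. Among the 405 protein-coding genes whose 5′ end overlaps that of a gene on the other strand, 154 had one, or 38%, against 19.9% of all protein-coding genes. Among the 250 genes with 4 distinct TSSs the share was 48.8%. These shares carry no test, and a gene with more TSSs has more chances to lie near a summit.

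**Figure D1:**
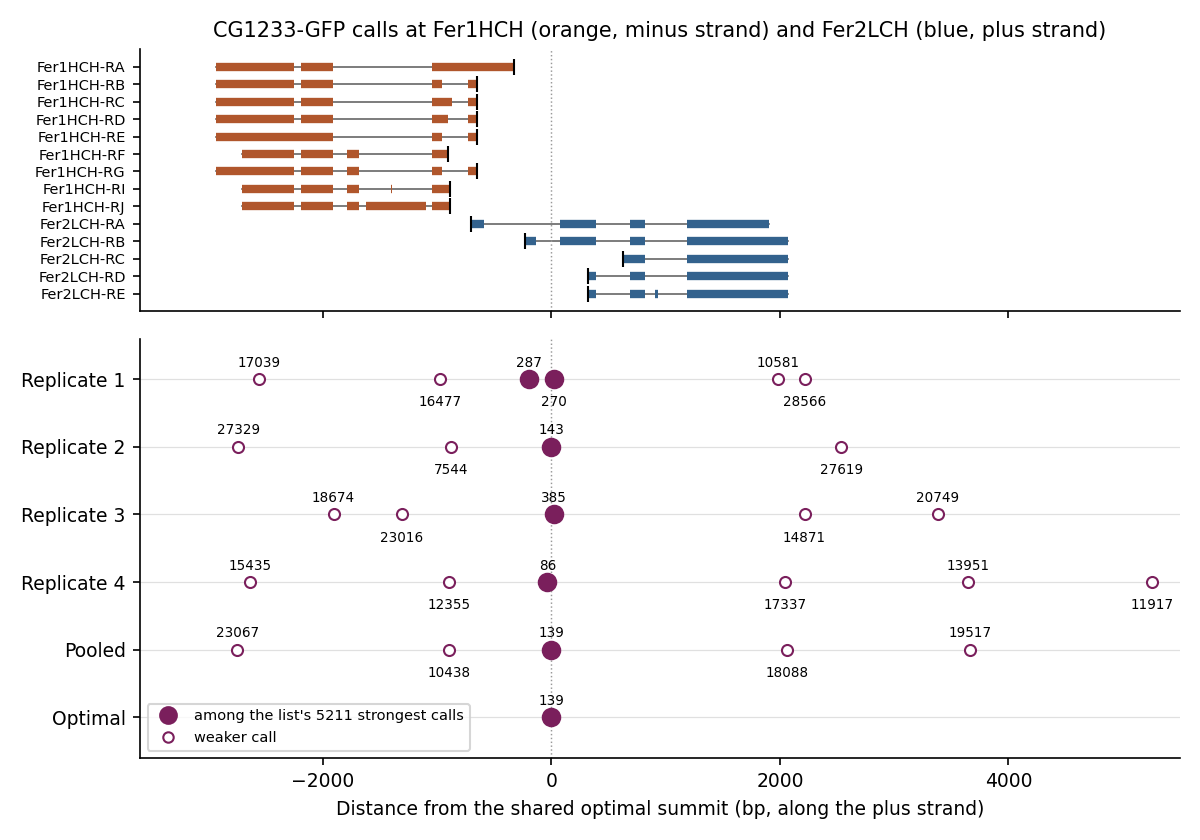
Calls at Fer1HCH and Fer2LCH in the 4 replicate lists, the pooled list and the optimal list, by distance from the shared summit (bp); the number beside each point is its rank in its list. Upper panel, annotated transcripts (bars exons, lines introns, ticks TSSs). In every list the filled points, calls among the 5211 strongest, sit near 0 and all other calls rank 7544 or weaker.

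In the replicate lists the shared call ranked 270, 143, 385 and 86 in replicates 1 to 4, a mean of 221 ± 134 (SD, n = 4). It was thus near the top of every replicate's 30000 calls, with replicates 2 and 4 above replicates 1 and 3. The caller's signal was 228, 621, 162 and 735 in replicates 1 to 4, on scales that cannot be compared between lists. The summits lay at 30388533, 30388509, 30388534 and 30388474, so all 4 fell within 60 bp. Their SD of 28.1 bp was near the median of 24.0 bp for the 4012 optimal peaks with a matching call in all replicates, and 58.9% of those peaks had a smaller one. A replicate was said to hold an optimal peak if a summit from its own strongest 5211 calls fell within the peak. All 4 replicates held the ferritin peak, as they did 48.2% of optimal peaks.

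Replicate 1 split the site into a pair of calls. Its second summit, at 30388315 with rank 287, lay between the outermost Fer1HCH TSS and the main summit. None of the other replicates, nor the pool, called it. At 287 bp the pooled peak was narrower than the median optimal peak of 424 bp, and 20.4% of optimal peaks were narrower still. Every other pooled call within 5 kb of a ferritin TSS was also 424 bp wide, so that median is not read as a measured extent.

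The promoter summits most like the shared one were sought by their ranks in the replicates. Over the 1740 optimal promoter summits with a call in all replicates, the 5 whose 4 ranks were closest to those of the shared call, by the mean absolute log2 ratio of ranks, belonged to Dic1 and Elp6 (0.21), CG11857 (0.26), CG1602 and PIG-G (0.28), nrv1 (0.36), and CG34126 and CG8892 (0.37). The Dic1 and Elp6 summit, for example, ranked 225, 134, 328 and 103 in replicates 1 to 4. The ferritin call had a mean rank of 327.5 in replicates 1 and 3, and of 114.5 in replicates 2 and 4, a ratio of 2.86. The same ratio had a median of 1.19 over the 4012 optimal peaks called in all replicates, with quartiles of 0.760 and 1.88. No label separates these pairs of replicates, and whether depth or another library property moves with the split was not tested, as the lists carry no depth.

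**Figure D2:**
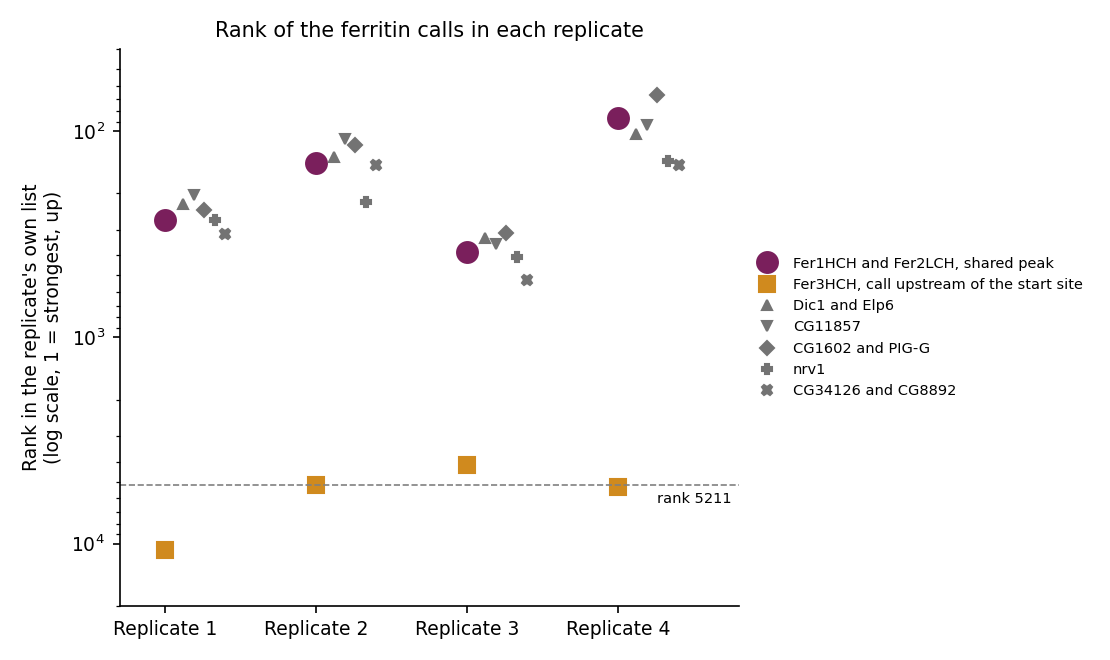
Rank of the ferritin calls in each replicate's own list (log scale, 1 at the strongest, upward), with the 5 promoter summits whose ranks were most like those of the shared peak in grey. The shared peak stays between ranks 86 and 385, while the Fer3HCH call runs from 4178 to 10714, on both sides of rank 5211 (dashed line).

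Elsewhere at the Fer1HCH and Fer2LCH genes the calls were weak. Within 5 kb of their TSSs the optimal list had 1 call and the pooled list 5, and the replicates had 6, 4, 5 and 6. The shared call's signal was 12.1 times that of the next pooled call, and 6.68, 9.80, 7.57 and 15.8 times that of the next call elsewhere in replicates 1 to 4, leaving aside the second summit of replicate 1. The next pooled call, at rank 10438, had its summit 5 bp from the canonical Fer1HCH TSS. A call within 100 bp of it was present in replicates 1, 2 and 4, at ranks 16477, 7544 and 12355, and absent in replicate 3. Another weak call lay at the 3′ end of Fer2LCH, at pooled rank 18088, with matches in replicates 1 and 4 at ranks 10581 and 17337.

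The shared peak also stood apart from other optimal peaks along the chromosome. The next optimal summits were 52213 bp away on the Fer1HCH side and 25490 bp away on the Fer2LCH side. The median optimal peak had its nearest neighbour at 3618 bp, and 92.3% of optimal peaks had a nearer neighbour than the ferritin peak.

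**Figure D3:**
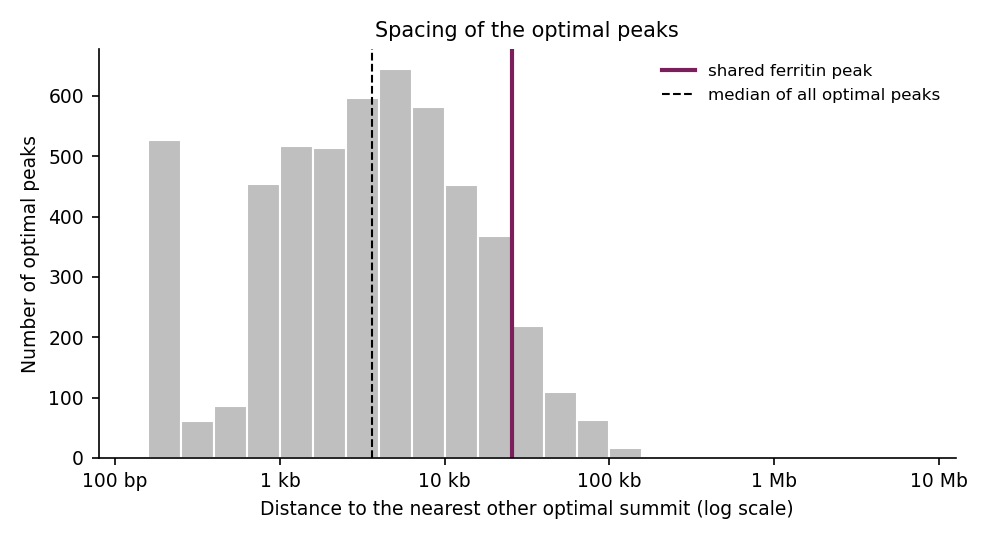
Distance from each of the 5211 optimal summits to the nearest other optimal summit (log scale), as the number of peaks per bin. The shared ferritin peak (solid line) is 25490 bp from its nearest neighbour, to the right of the median of 3618 bp (dashed line).

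The summit's distance to Fer1HCH and Fer2LCH was compared over the 4 replicates with an exact sign-flip permutation test, two-sided; with 4 replicates its p cannot fall below the usual threshold. From the outermost TSS of each gene, the distance averaged 334.5 ± 28.1 bp for Fer1HCH and 708.5 ± 28.1 bp for Fer2LCH (SD, n = 4), a difference of -374 bp (exact p = 0.13, the smallest that 4 replicates allow). Because the summit lay on the same side of both TSSs in every replicate, that difference is set by the annotation and has an SD of 0. With the nearest TSS of each gene the order turned round, to 334.5 bp for Fer1HCH and 236.5 bp for Fer2LCH. With the canonical TSSs the distances were 893.5 bp for Fer1HCH and 317.5 bp for Fer2LCH. Which of the 2 genes the summit lies closer to thus depends on the TSSs chosen.

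None of 10 searched words was present within 50 bp of either ferritin summit, on either strand. They were the DRE word TATCGATA, the core promoter words GGTCACACT and CATCNCTA, the TATA box core TATAAA, the repeat word GAGAG, the E-box words CAGCTG and, as its variant, CACGTG. To these came the metal response element core TGCACNC with its second form TGCGCNC, and the antioxidant response word TGACNNNGC. None of the words contains another. TATAAA was the most frequent of them within 50 bp of optimal summits, at 20.1%, followed by GAGAG at 10.1%, while TATCGATA was present at 1.30%. Each of the remaining words was present at 4.15% or less. Most optimal summits thus lacked any given word, and the share that lacked all 10 is not given. Over windows of about the same length as promoter windows, 150 bp to either side of the summit, optimal summits had TATAAA at 45.0%, GAGAG at 34.7% and TATCGATA at 4.05%. In windows from 250 bp before to 50 bp after the 19253 distinct TSSs of protein-coding genes, the same 3 words were present in 42.2%, 33.1% and 7.98%. Of the windows at the 4 TSSs of each gene, TATAAA was in 1 for Fer1HCH and 3 for Fer2LCH, and GAGAG in 2 and 3. TGCACNC and CAGCTG were each in 1 window of either gene, and TGCGCNC in 1 of Fer2LCH only. Over all promoter windows these last 3 words were present in 11.3%, 17.9% and 10.6%. The Fer3HCH window held none of the 10 words. Farther out in the shared peak, GAGAG matched on the minus strand 80 bp from the summit, where 23.3% of optimal summits have it within 100 bp. TGCACNC, the core bound by the metal-responsive factor MTF-1, matched as TGCACAC 124 bp from the summit, at chr3R:30388633-30388639 on the plus strand. Within 150 bp, 14.3% of optimal summits have this word. GC content in the 101 bases about the summit was 33.7% at the shared peak and 36.6% at the Fer3HCH call, and its median was 33.7% over optimal peaks.

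Fer3HCH (FBgn0030449, chrX:13107382-13108194, minus strand) has 1 transcript and lies whole within a 10092-bp intron of Chpf, a gene on the same strand. No optimal summit lay within 500 bp of its TSS, while 14.9% of the 10246 protein-coding genes with 1 TSS had one. A pooled call of any rank lay within 500 bp of a TSS in 47.8% of protein-coding genes, with a median strongest rank of 6713 over the 6669 genes that had a call. The Fer3HCH call, at rank 5319, was on the stronger side of that median.

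The pooled call spans chrX:13108391-13108814, with its summit 409 bp upstream of the TSS and no exon of any gene under it. Its signal of 233 was 98.7% of the lowest signal in the optimal list, and the shared ferritin peak's pooled signal was 7.57 times as high. Its −log10 q was 2.48. In replicates 1 to 4 it ranked 10714, 5177, 4178 and 5317, a mean of 6347 ± 2956 (SD, n = 4). Replicates 2 and 3 thus had it inside their 5211 strongest calls, replicate 4 just outside, and replicate 1 well below. The summits lay 409, 406, 371 and 464 bp upstream of the TSS. The split of replicates seen at the shared peak was not seen here, since replicate 3 gave the strongest rank and replicate 1 the weakest.

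Around Fer3HCH several weak calls ran along the Chpf intron. Within 5 kb of its TSS there were 8 pooled calls, against 5 for Fer1HCH and for Fer2LCH around their outermost TSSs and a median of 2 per protein-coding gene; 4.37% of genes had 8 or more. The replicates had 9, 8, 8 and 9 such calls. Of the 8 pooled calls, the strongest had a −log10 q of 2.48, the next 2.10 and the rest 1.58 or less. The call after the one described lay 1749 bp upstream, at pooled rank 6097 and at ranks 7648, 3846, 13125 and 8370 in replicates 1 to 4. In replicates 1 and 2 it was the strongest call within 5 kb. Downstream, a call 2769 bp from the TSS had pooled rank 7552 and no match in replicate 3. Chpf itself, the only other gene with a TSS within 5 kb, at 4268 bp, had no pooled call within 500 bp of its own TSS, and only weak calls there in replicates 1 and 4, at ranks 24003 and 16538.

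**Figure D4:**
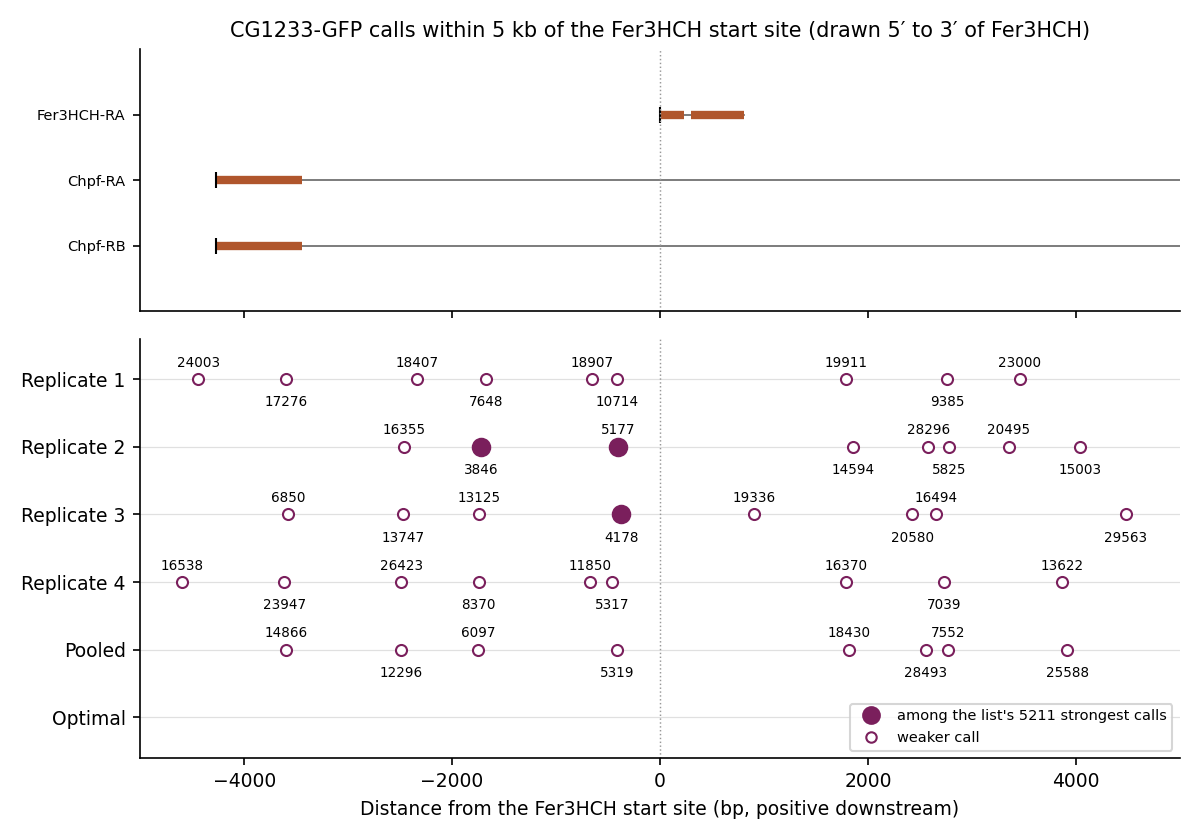
Calls within 5 kb of the Fer3HCH TSS in the 6 lists, by distance along the direction of transcription (bp), with the rank of each call beside it. Upper panel, exons (bars), introns (lines) and TSSs (ticks) of Fer3HCH and of the enclosing Chpf. The optimal list is empty here, and the strongest pooled call, at rank 5319, lies 409 bp upstream.

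The nearest optimal peak to Fer3HCH was 8072 bp downstream of its TSS, at chrX:13100044-13100151. It lay in another intron of Chpf, 2292 bp long, and 5654 bp from the closest TSS, that of CG2200. It ranked 1450 in the optimal list and 2429, 941, 2450 and 1864 in replicates 1 to 4. All 4 replicates therefore had this distant intronic site well above the call next to Fer3HCH.

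Of 35 other genes of iron handling, listed by role, 8 had an optimal promoter summit, or 22.9% against 19.9% of all protein-coding genes. That share was near the background. All 8 ranked well below the shared ferritin peak, the strongest being cnc at 2125. None of the 8 was held by all 4 replicates, against 48.2% of all optimal peaks, a share not given for peaks of like rank. Of the 8, 7 were held by 3 replicates and 1, MagR, by 2. Even so, cnc and Keap1 had a call within 500 bp of a TSS among the 5211 strongest of every replicate. A pooled call of any rank was present at 23 of the 35, beside 47.8% of all protein-coding genes, a comparison without a test. The median rank of these calls was 7240, beside a median of 6713 over all protein-coding genes with a call.

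Iron regulatory protein Irp-1A binds the iron response element of target messenger RNAs, such as that of Fer1HCH. Its gene had an optimal summit at rank 3070, 101 bp upstream of a TSS, with no call in replicate 1 and ranks of 2764, 1288 and 2121 in replicates 2 to 4. Irp-1B, the gene of its paralogue, had only a weak pooled call at rank 23439. Of this pair, 1 of 2 therefore had an optimal promoter summit, beside 19.9% of all protein-coding genes.

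None of the 6 iron transport genes had an optimal promoter summit, beside 19.9% of all protein-coding genes. The closest was mfrn, the mitochondrial iron importer mitoferrin, whose pooled call ranked 6299. Zip99C, which supplies iron to the secretory pathway where ferritin is loaded, had rank 9200, and Mvl, a metal transporter of the NRAMP family, rank 13166. The transferrin-family genes Tsf1, Tsf2 and Tsf3 had no pooled call at their promoters.

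In the heme pathway, 1 of the 7 genes reported had an optimal promoter summit, or 14.3%, beside 19.9% of all protein-coding genes. It was Pbgs, the porphobilinogen synthase gene, which ranked 2894 overall and 6220, 4671, 1926 and 2583 in replicates 1 to 4. Coprox and the heme oxygenase gene Ho, at pooled ranks 5577 and 5595, fell just outside the optimal list, like Fer3HCH. Alas, the first enzyme of the pathway, had pooled rank 10940, with calls in replicates 1 and 3 but none in replicates 2 and 4. Urod, Ppox and FeCH had no pooled call.

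Of the 8 iron-sulfur cluster assembly genes, 12.5% had an optimal promoter summit, beside 19.9% of all protein-coding genes. MagR alone had one, at rank 2815. It ranked 2465 in replicate 2 and 2187 in replicate 4, but 9628 in replicate 1 and 10107 in replicate 3. IscU, the scaffold on which clusters form, had pooled rank 10719. The ferredoxin genes Fdx2 and Fdx1 had pooled ranks 17387 and 22960. Nfs1, bcn92, fh and Hsc20 had none.

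Of the 12 metal and oxidative stress genes, 5 had an optimal promoter summit, or 41.7%, beside 19.9% of all protein-coding genes. The role groups are small, and their shares carry no test. Among the 5 were cnc, the homologue of the stress factor Nrf2, at rank 2125, and Keap1, its inhibitor, at rank 3694. The mitochondrial superoxide dismutase gene Sod2 ranked 3457, the metal-responsive factor gene MTF-1 ranked 3598 and the catalase gene Cat ranked 4923. The MTF-1 summit was at -491 bp from its TSS (upstream), close to the limit of 500 bp. Sod1 had pooled rank 7240. Among the metallothioneins, which bind metals such as copper, MtnD and MtnE shared 1 weak call at rank 14283, MtnC had rank 15617 and MtnA rank 19068, while MtnB had none, as had maf-S.

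Replicates 1 and 3 and replicates 2 and 4 differed at the iron-handling genes in both directions. Of the 13 genes with a call in all replicates, 6 ranked stronger in both replicates 2 and 4 than in either of replicates 1 and 3, and another 5 the other way round. Promoter calls in replicates 1 and 3 alone were present at 6 genes, and in replicates 2 and 4 alone at 1 gene, MtnC. No share over all protein-coding genes is given beside these counts, so they describe the listed genes alone and show no trait particular to them. The ferritin pair ranked stronger in both replicates 2 and 4, along with mfrn, Coprox, MagR, MTF-1, cnc and Sod2.

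**Figure D5:**
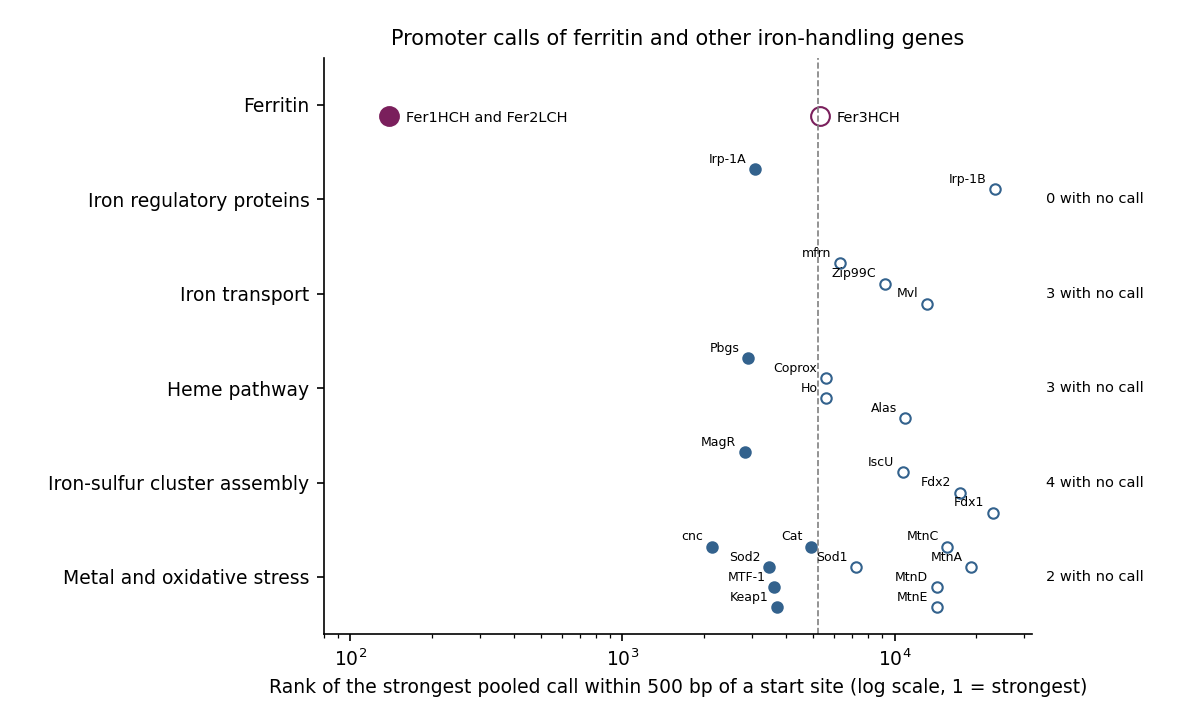
Rank of the strongest pooled call within 500 bp of a TSS (log scale, strongest to the left) for the ferritin genes and 35 iron-handling genes by role; filled points are in the optimal list, to the left of the dashed line at rank 5211. The shared ferritin peak, at rank 139, is left of every other gene shown, the nearest being cnc at 2125; genes with no call are counted at the right.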

How the data were processed

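ChIP-seq calls from 4 biological replicates of the CG1233-GFP strain were analysed from the authors' peak lists on dm6: 1 list per replicate, 1 on the pooled replicates and the optimal list, per the file headers and the text deposited with them. Each list was called against control alignments shared by the replicates. Aligner and caller are not given in the sources used here. The signal deposited for each call is a score of the caller, used only for ranks and for ratios inside 1 list. Values of −log10 q came with the deposited lists, whose p-value column was not used. Read depth is unknown.

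Summits were read as 1-based positions and compared with TSSs of the Ensembl release 115 annotation of the same assembly, whose arm lengths matched. Only X, 4 and the arms of 2 and 3 entered. A promoter summit lies within 500 bp of any TSS, and 1 peak can serve several genes. A pooled call was matched to the nearest replicate call within 100 bp. For a gene's rank in a list, the strongest call within 500 bp of any of its TSSs was taken. Sequence came from the RefSeq genome of the same build. Of the 35 iron-handling symbols, 32 matched directly and 3 through RefSeq synonyms; 1 further listed item is not reported here. The genes named were the ferritin genes, any with a TSS within 5 kb of theirs, the iron-handling list and the 5 promoter summits most alike in rank. The members and lists were chosen with earlier results of these data known, so counts are descriptions beside the background share. The scripts (Python 3.11.15, numpy 2.4.6, pandas 2.3.3, scipy 1.17.1) were tested on simulated peaks. Replicate values are mean ± SD (n = 4) and cover the spread between these 4 embryo samples only.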

Additional observations from a re-analysis of the deposited data

How the results depend on the processing

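The number of ferritin genes with a promoter peak, 2 by any TSS within 500 bp, was 0 with a window of 200 bp, 1 with the 5′-most TSS alone and 1 with the canonical TSS alone. It stayed at 2 with a window of 1000 bp, in the strongest 2605 optimal peaks, and for peaks held by every replicate. These settings could not lower the count. A wider window only adds genes, and both genes rest on the peak of rank 139, which every replicate held. Within 10000 bp of a ferritin TSS there were 2 optimal summits in place of 1, through the peak in the Chpf intron. The distance to Fer1HCH minus that to Fer2LCH changed sign from the 5′-most TSSs, to 98 bp with the nearest TSSs and 576 bp with the canonical TSSs, which follows from the positions of the annotated sites. The 8 iron-handling genes fell to between 1 and 3 when 1 replicate was left out and the peak had to be held by each of the other 3, which is a stricter rule than the optimal list. Taking the strongest call within 250 bp left the mean rank of 221 as it was. Ranking by q-value, with ties broken by signal, left the rank of 139 and the mean rank of 221 as they were. The pooled −log10 q was 3.77 both at rank 139 and at rank 1450. Signal therefore set the order among such ties, and the q-value was no separate check of these ranks. Leaving out 1 replicate moved the mean rank of the shared call between 166 and 266, and that of the Fer3HCH call between 4891 and 7069. The canonical TSSs and the alternatives for the Fer3HCH rank were chosen after seeing the data. No paired analysis was possible because there is 1 group. With no read counts in the lists, no rank could be weighed by depth.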
